A study of Homo sapiens with 24 samples.

Results

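Transcripts of 10 genes that act upstream of the growth kinase complex mTORC1 were measured in LNCaP cells: DDIT4, SESN1, SESN2, SESN3, DEPTOR, TSC1, TSC2, DEPDC5, RRAGC and RRAGD. The genes were taken by name from the platform annotation, and a probe was kept if its detection p was under 0.01 on at least 3 of the 24 arrays. All 10 genes passed that filter, with 13 of their 16 probes, and they stand among 10345 genes tested of 20046 named on the array. The 3 probes left out, 1 of TSC2 and 2 of DEPDC5, were detected on 0 arrays. LNCaP is an established prostate cancer line that responds to androgen. Cells grown in serum-supplemented RPMI were plated straight onto ST045849, a small-molecule inhibitor of O-GlcNAc transferase (OGT), onto its vehicle, onto an siRNA against OGT (siOGT) or onto a scrambled siRNA, and RNA was taken after 12 or 24 hours. Each of the 8 groups held 3 arrays, which the submitters called biological replicates, and the labels state no dose of the compound. OGT attaches N-acetylglucosamine to serines and threonines of nuclear and cytosolic proteins, and the series as a whole concerns this modification and the MYC protein.

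mTORC1 is a protein kinase complex on the lysosome surface that promotes protein synthesis and growth when amino acids, growth factors and energy are plentiful. Growth factor and energy signals reach it through the TSC complex, in which TSC1 stabilises TSC2 and TSC2 switches off the small GTPase RHEB, the direct activator of the kinase. Amino acid signals reach it through the Rag GTPases, which recruit mTORC1 to the lysosome, and through GATOR1, which switches the Rags off. Of the 10 genes, 8 encode brakes of these routes. RRAGC and RRAGD do not: they encode the alternative Rag partners that recruit the complex, and they are described here as the lysosomal arm of the same circuit. In prostate cancer cells, androgen and PI3K signals are known to act on this pathway.

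Stretches of 250 bases before the transcript start were read for the genes with an entry in the RefSeq promoter table of build GRCh38.p14, which covered 8 of the 10 genes. They were searched on both strands for TGATGNAA, a form of the composite element bound by ATF4 with a C/EBP partner, for CACGTG, the E-box bound by the MYC and TFE families, and for GTAAACA, the core bound by forkhead factors such as FOXO. The first was present in 3.16%, the second in 6.31% and the third in 2.98% of 34788 distinct promoter stretches of that length. The stretches of DDIT4 (chr10:72273674-72273923, + strand) and SESN2 (chr1:28259268-28259517, + strand), brakes that rose with ST045849, held none of the 3 strings, nor did those of SESN1, SESN3, TSC1 and DEPDC5. Matches lay only before the first start of TSC2 (chr16:2047735-2047984, + strand), where CACGTG at -114 to -109 overlapped TGATGCAA at -110 to -103, and before RRAGC (chr1:38859773-38860022, - strand), with CACGTG at -112 to -107. Positions are counted back from -1, the base before the start. These 4 sequences are shown because they set a pair of raised brakes known as ATF4 targets beside the genes that hold a match. Each is written 5′ to 3′ on the strand of the gene, with a match in capitals.
DDIT4: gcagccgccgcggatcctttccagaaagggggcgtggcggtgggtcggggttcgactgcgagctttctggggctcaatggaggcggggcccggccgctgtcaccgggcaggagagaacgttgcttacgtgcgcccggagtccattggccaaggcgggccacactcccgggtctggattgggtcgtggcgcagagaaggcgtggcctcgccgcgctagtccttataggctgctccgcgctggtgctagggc
SESN2: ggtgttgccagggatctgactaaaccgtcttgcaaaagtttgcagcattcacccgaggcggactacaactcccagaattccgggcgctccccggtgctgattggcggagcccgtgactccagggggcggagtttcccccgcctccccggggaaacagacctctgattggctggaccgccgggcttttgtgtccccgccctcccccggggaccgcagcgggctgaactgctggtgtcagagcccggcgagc
TSC2: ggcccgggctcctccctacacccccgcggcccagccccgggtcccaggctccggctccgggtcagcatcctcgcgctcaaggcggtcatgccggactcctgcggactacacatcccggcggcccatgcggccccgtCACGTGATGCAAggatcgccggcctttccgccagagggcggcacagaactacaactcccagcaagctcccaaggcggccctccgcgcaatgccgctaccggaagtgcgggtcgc
RRAGC: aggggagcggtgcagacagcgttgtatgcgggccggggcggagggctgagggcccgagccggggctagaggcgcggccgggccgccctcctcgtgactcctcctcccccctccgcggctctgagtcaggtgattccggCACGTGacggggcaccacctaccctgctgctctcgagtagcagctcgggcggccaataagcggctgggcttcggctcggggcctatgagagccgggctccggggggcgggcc
A match is a string of letters and no evidence of binding, and the absence of one says only that these letters are not in this window.

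The median raw intensity per array was 102 to 126, and 29.6% to 34.3% of probes were detected on each array. Replicate arrays correlated at 0.987 to 0.993 over the tested genes. Luminal prostate markers were detected on all 24 arrays for 7 of the 7 with a probe. Of the markers of other cells, 0 of 3 basal, 1 of 5 stromal and endothelial (VWF), 0 of 4 leukocyte and 1 of 4 neuroendocrine genes (ENO2) were detected on 3 or more arrays. OGT itself, the check of the knockdown, was lower with siOGT, having dropped by 1.70 (log2) to 30.7% of the scrambled level after 12 hours (adjusted p = 0.004) and by 1.83 to 28.1% after 24 hours (adjusted p = 0.000679). With ST045849 the OGT transcript read 0.48 above vehicle after 12 hours (adjusted p = 0.207) and 0.50 above it after 24 hours (adjusted p = 0.122), and neither passed. Principal component 1, with 34.2% of the variance, separated the ST045849 arrays (14.1 to 29.2) from all others (-12.9 to -1.27). Along it the arrays were cut into 2 sets at the widest gap between the vehicle arrays. Replicate 3 of 12 hours and replicates 1 and 3 of 24 hours formed the first set. Replicates 1 and 2 of 12 hours and replicate 2 of 24 hours formed the second. The sets were drawn from the vehicle arrays, carried to the others by time and replicate number, cross both times and are not in the labels. This choice puts the vehicle arrays farthest from the ST045849 arrays into the first set. Treated arrays stood farther from the others in the first set, with ST045849 arrays at 25.9 to 29.2 and others at -12.9 to -9.34, against 14.1 to 20.4 and -6.34 to -1.27 in the second. Values within each set are given below beside the pooled ones.

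In the main setting ST045849 raised 5 of these 10 transcripts at 12 hours and 7 at 24 hours. With siOGT none passed the test. At 12 hours, 5 of the 10 genes rose against vehicle (DDIT4, SESN1, SESN2, TSC1 and RRAGD) and 0 fell, where 5.73% of all genes tested were called higher and 5.28% lower. At 24 hours DEPTOR and RRAGC passed as well, so that 7 rose and 0 fell, against 13.6% of all genes called higher and 10.7% lower. The 10 genes were chosen with earlier results of these data known, so their counts, here and below, are no independent evidence. DEPTOR had changed by 0.33 at 12 hours and by 0.32 at 24 hours, and the change between times was called for neither gene. With arrays scaled to their medians in place of quantile normalization, DDIT4 and SESN2 were called at 12 hours, joined by TSC1 and RRAGD at 24 hours, and the other changes called above kept their sign without passing. The median change of the 10 genes was 0.40 at 12 hours and 0.47 at 24 hours on the log2 scale, and that of all genes was 0.00 and 0.03. With siOGT, 0 of the 10 were called against scrambled at either time, where 0.00967% of all genes were called at 12 hours and 0.126% at 24 hours. At an unadjusted p under 0.05 the siOGT contrasts held 1 of the 10 at 12 hours, TSC1, and 0 at 24 hours. The share of all genes under that cut is not given, so such counts, here and below, are no result about the 10 genes. A gene is called at an adjusted p under 0.05 in limma's moderated test, fitted over all 24 arrays with Benjamini-Hochberg adjustment over the 10345 genes, and levels are normalised log2 intensities of 1 probe per gene. A value from a whole culture cannot tell a change in every cell from a change in the share of cells that carry the transcript.

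**Figure D1:**
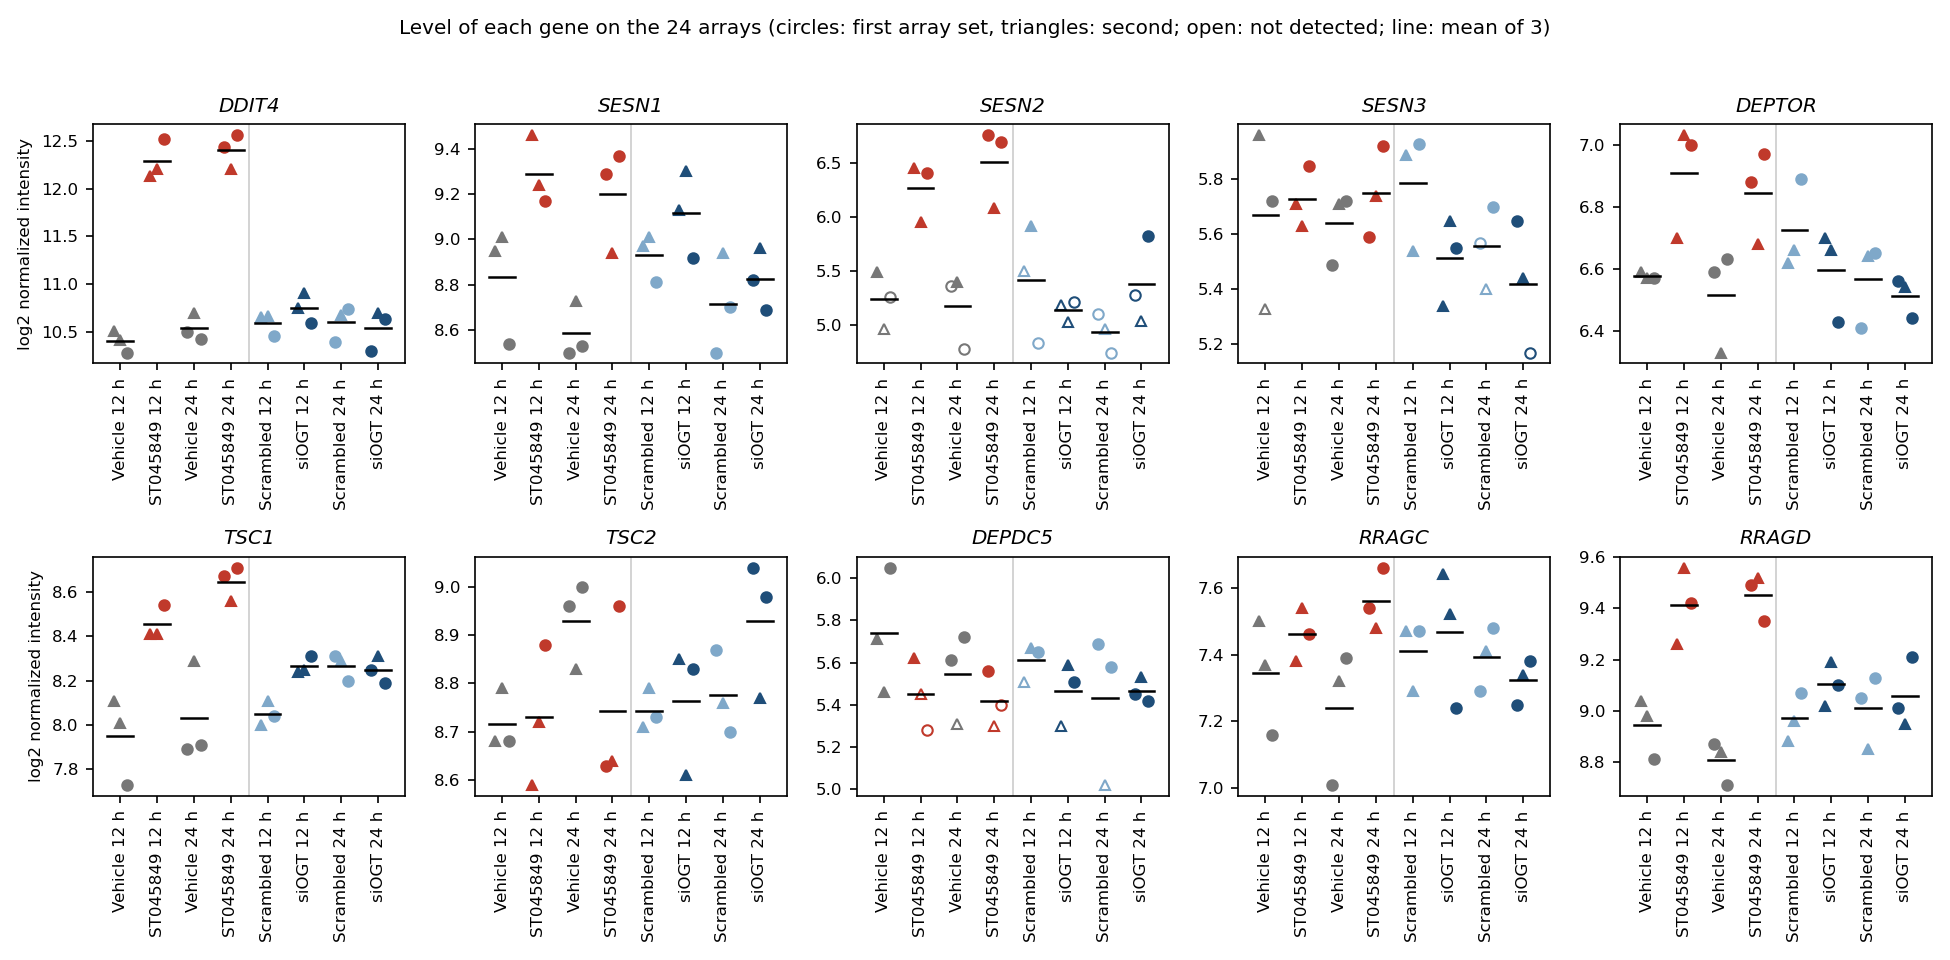
Normalised log2 intensity of the 10 genes on each of the 24 arrays, by group, with circles for the first array set, triangles for the second, open markers where the probe was not detected and a line for the mean of 3. DDIT4 lies at 12.13 to 12.56 on the 6 ST045849 arrays and at 10.28 to 10.91 on the other 18, while SESN3, TSC2 and DEPDC5 lie in overlapping ranges.

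DDIT4, also called REDD1, is a stress-induced protein that acts through TSC2 to lower mTORC1 activity. Its level at 12 hours was 10.51, 10.41 and 10.28 with vehicle and 12.13, 12.21 and 12.52 with ST045849. At 24 hours it was 10.50, 10.70 and 10.42 with vehicle and 12.44, 12.21 and 12.56 with the compound. Every treated array stood above every untreated array by a wide margin, at both times. The rise was 3.70-fold at 12 hours (1.89 ± 0.14 SE on the log2 scale, adjusted p = 2.17e-08) and 3.64-fold at 24 hours (1.86 ± 0.14, adjusted p = 1.84e-08). Ranked by the size of the change among all genes tested, DDIT4 was number 7 from the highest at 12 hours and number 12 at 24 hours. In the siRNA groups the level was 10.65, 10.66 and 10.45 with scrambled and 10.75, 10.91 and 10.59 with siOGT at 12 hours, and 10.39, 10.67 and 10.74 against 10.30, 10.70 and 10.63 at 24 hours. Scrambled and siOGT arrays overlapped at both times. The siOGT change had a 95% interval of -0.12 to 0.45 at 12 hours and of -0.34 to 0.23 at 24 hours, so that these intervals do not reach the rise seen with the compound. In order of group mean, the 24 hour ST045849 group (12.40 ± 0.18 SD, n = 3) and the 12 hour ST045849 group (12.29 ± 0.20) stood first and did not differ beyond their spread, and the 6 other groups followed between 10.40 and 10.75.

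Sestrins are stress-induced proteins, and SESN2 is a leucine sensor that holds back GATOR2, the inhibitor of GATOR1, when leucine is low. SESN2 was close to background in untreated cells and was detected on 6 of 6 ST045849 arrays but on 4 of the 18 others. Its level at 12 hours was 5.49, 4.96 and 5.26 with vehicle and 6.46, 5.95 and 6.41 with ST045849. At 24 hours it was 5.36, 5.40 and 4.77 with vehicle and 6.76, 6.08 and 6.70 with the compound. Treated and untreated arrays did not overlap at either time. SESN2 rose 2.05-fold at 12 hours (1.03 ± 0.25, adjusted p = 0.0123) and 2.53-fold at 24 hours (1.34 ± 0.25, adjusted p = 0.00077). Only 1 of 3 vehicle arrays detected the probe at each time, and the size of these folds depended on the background correction. Without that correction, and likewise in the authors' processed values, the change was 0.39 at 12 hours and 0.53 at 24 hours, still called. In that setting SESN2 stood close to SESN1 (0.39 and 0.51) and RRAGD (0.40 and 0.55). The 12 hour call was lost without vehicle replicate 2 (0.90, adjusted p = 0.0551) or without ST045849 replicate 3 (0.97, adjusted p = 0.0592). Scrambled arrays read 5.50, 5.92 and 4.83 at 12 hours and 5.10, 4.96 and 4.74 at 24 hours, and siOGT arrays read 5.18, 5.02 and 5.21, then 5.28, 5.03 and 5.82. The siRNA groups overlapped at both times, and the probe was detected on 1 of 6 arrays with either siRNA.

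SESN1, known as a p53 and FOXO target, was detected on every array and rose at both times. At 12 hours it stood at 8.95, 9.01 and 8.54 with vehicle and 9.46, 9.24 and 9.17 with ST045849. The 24 hour levels were 8.50, 8.73 and 8.53 with vehicle and 9.29, 8.94 and 9.37 with the compound. The groups did not overlap at either time, and at 12 hours the nearest arrays, 9.01 and 9.17, were close. SESN1 rose 1.38-fold at 12 hours (0.46 ± 0.14, adjusted p = 0.0443) and 1.53-fold at 24 hours (0.61 ± 0.14, adjusted p = 0.00421). The 12 hour call was lost in 5 of 6 fits that left out 1 array, all except the one without vehicle replicate 2, and in 5 of 13 other settings. Its lowest value there was 0.31, without vehicle replicate 3 (adjusted p = 0.246). With siRNA, SESN1 read 8.97, 9.01 and 8.81 for scrambled and 9.13, 9.30 and 8.92 for siOGT at 12 hours. At 24 hours it read 8.50, 8.94 and 8.70 for scrambled and 8.82, 8.96 and 8.69 for siOGT. These overlapped, with siOGT changes of 0.19 and 0.11 that were not called.

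SESN3, the FOXO-linked sestrin, stayed between 5.17 and 5.96 on all 24 arrays and was detected on 20 of them. Its change with ST045849 was 0.06 at 12 hours (95% interval -0.26 to 0.38, adjusted p = 0.849) and 0.11 at 24 hours (-0.21 to 0.43, adjusted p = 0.659). Treated and vehicle arrays overlapped at both times. With siOGT it read -0.27 and -0.14 against scrambled, neither called.

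TSC1 rose at both times while its partner TSC2 did not pass the test. At 12 hours TSC1 was at 8.11, 8.01 and 7.73 with vehicle and at 8.41, 8.41 and 8.54 with ST045849, and at 24 hours at 7.89, 8.29 and 7.91 against 8.67, 8.56 and 8.71. All treated arrays lay above all vehicle arrays of the same time. The rise was 1.41-fold at 12 hours (0.50 ± 0.10, adjusted p = 0.00431) and 1.53-fold at 24 hours (0.61 ± 0.10, adjusted p = 0.00032). A second TSC1 probe, in the fit of all kept probes, gave 0.60 ± 0.10 (adjusted p = 0.00113) and 0.57 ± 0.10 (adjusted p = 0.000848). Another, dim probe, detected on 12 of 24 arrays, gave 0.04 ± 0.30 and -0.06 ± 0.30, and with the mean of the 3 probes the 12 hour change was 0.38 (adjusted p = 0.059). The 12 hour call was also lost with the compared groups fitted alone (adjusted p = 0.0614). TSC2, the subunit that acts on RHEB, lay between 8.59 and 9.04 on all arrays. Its change was 0.01 at 12 hours (95% interval -0.21 to 0.23) and -0.19 at 24 hours (-0.40 to 0.03, adjusted p = 0.207).

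With siOGT the 10 main probes held 1 unadjusted p under 0.05, that of TSC1 at 12 hours. Scrambled arrays of 12 hours read 8.0, 8.11 and 8.04 and siOGT arrays 8.24, 8.25 and 8.31, which did not overlap. The change was 0.22 (95% interval 0.00 to 0.44, unadjusted p = 0.0468) with an adjusted p of 1 in limma's test. Groups apart in that direction were found for 3.99% of all genes, and among the 10 genes for 1. At 24 hours the levels were 8.31, 8.29 and 8.20 with scrambled and 8.25, 8.31 and 8.19 with siOGT, which overlapped. For the second probe the change was -0.01 at 12 hours and 0.23 at 24 hours (unadjusted p = 0.0423, adjusted p = 0.414), so that the 2 probes placed it at different times. Scrambled against vehicle, 0 of the 10 genes were called at 12 hours (0% of all genes) and 0 at 24 hours (0.087% of all genes). There TSC1 alone had an unadjusted p under 0.05 by limma, at 24 hours, with a difference of 0.24 (adjusted p = 0.337).

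DEPTOR, a subunit that binds and inhibits the kinase itself, showed a small rise. Its levels at 12 hours were 6.59, 6.57 and 6.57 with vehicle and 6.70, 7.03 and 7.0 with ST045849, and at 24 hours 6.59, 6.33 and 6.63 against 6.88, 6.68 and 6.97. The groups did not overlap at either time. The change was 0.33 ± 0.11 at 12 hours (1.26-fold, adjusted p = 0.0676), which missed the threshold, and 0.32 ± 0.11 at 24 hours (1.25-fold, adjusted p = 0.0454), which passed it. That 24 hour call was lost in 4 of 6 fits without 1 array, with values of 0.23 without vehicle replicate 2, 0.26 without ST045849 replicate 3, 0.30 without ST045849 replicate 1 and 0.36 without vehicle replicate 1. It was also lost in 7 of 13 other settings, among them no background correction (0.17, adjusted p = 0.0741), the authors' processed values (0.17, adjusted p = 0.074) and the compared groups alone (0.32, adjusted p = 0.103). A second DEPTOR probe gave 0.45 ± 0.15 at the earlier time (adjusted p = 0.0683) and 0.22 ± 0.15 at the later (adjusted p = 0.325), neither called in the fit of all kept probes. With siOGT the main probe read -0.13 and -0.05 against scrambled, and the second -0.43 at 12 hours (unadjusted p = 0.00875, adjusted p = 1), none called.

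DEPDC5, a subunit of GATOR1, was near background. It was detected on 2 of 6 ST045849 arrays and on 14 of the 18 others. At 12 hours it read 5.71, 5.46 and 6.05 with vehicle and 5.62, 5.45 and 5.28 with ST045849, and at 24 hours 5.61, 5.31 and 5.72 against 5.56, 5.30 and 5.40. The groups overlapped at both times. Its changes of -0.29 at 12 hours (95% interval -0.63 to 0.04, adjusted p = 0.265) and -0.13 at 24 hours (-0.46 to 0.21, adjusted p = 0.608) did not pass, and a probe this dim limits what could be seen.

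Of the Rag partners, RRAGD was called at both times and RRAGC at 24 hours only, and the difference between them was not tested. RRAGD, known as a target of the MiT/TFE lysosomal factors, was at 9.04, 8.98 and 8.81 with vehicle and 9.26, 9.56 and 9.42 with ST045849 at 12 hours. At 24 hours it was at 8.87, 8.84 and 8.71 against 9.49, 9.52 and 9.35. Treated arrays stood above vehicle arrays without overlap, by 1.38-fold at 12 hours (0.47 ± 0.10, adjusted p = 0.00612) and 1.56-fold at 24 hours (0.64 ± 0.10, adjusted p = 0.000172). With the compared groups fitted alone, the 12 hour change was not called (adjusted p = 0.0659). RRAGC read 7.50, 7.37 and 7.16 with vehicle and 7.38, 7.54 and 7.46 with ST045849 at 12 hours, and 7.01, 7.32 and 7.39 against 7.54, 7.48 and 7.66 at 24 hours. It overlapped at 12 hours (0.11 ± 0.12, adjusted p = 0.588) and stood apart at 24 hours (0.32 ± 0.12, 1.25-fold, adjusted p = 0.0477). The 24 hour RRAGC call was lost in 5 of 6 fits without 1 array, all except the one without vehicle replicate 3, with the lowest value, 0.21, without vehicle replicate 1. It was also lost in 5 of 13 other settings, such as the replicate number as a block (0.32, adjusted p = 0.0556). With siOGT, RRAGD changed by 0.13 and 0.04 and RRAGC by 0.05 and -0.07, none called. Groups apart in the higher direction with ST045849 were found for 6 of the 10 genes at 12 hours and 7 at 24 hours, where 14% and 22.7% of all genes were.

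**Figure D2:**
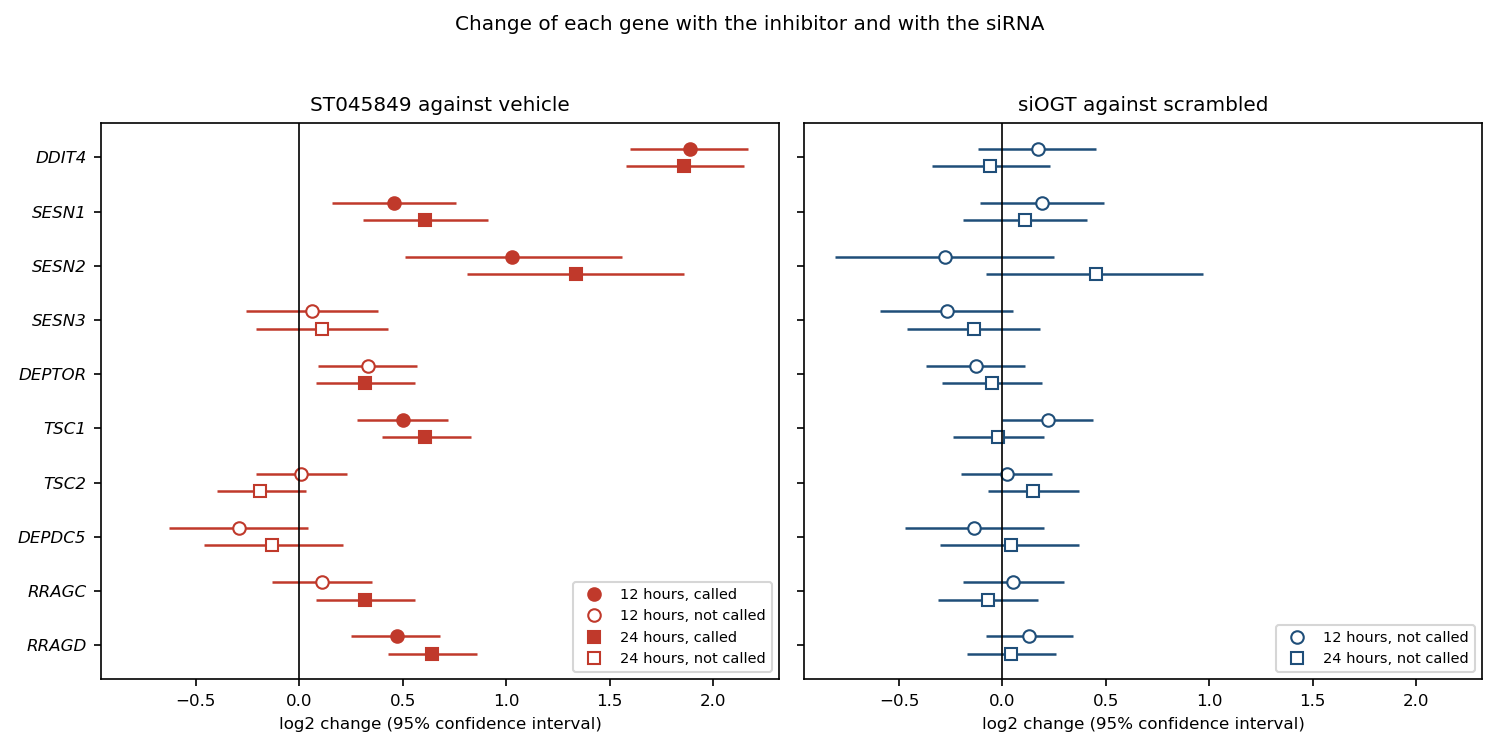
Log2 change of each of the 10 genes against its control, with 95% intervals from the limma fit, for ST045849 and siOGT at 12 and 24 hours, with filled markers for called changes. DDIT4 stands at 1.89 and 1.86 with ST045849 and at 0.17 and -0.06 with siOGT.

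The difference between the inhibitor and the knockdown was tested itself. DDIT4 responded more to ST045849 than to siOGT at 12 hours, by 1.72 ± 0.19 on the log2 scale (adjusted p = 4.71e-05), and was the 1 gene of the 10 called there, where 1.26% of all genes were called in that direction. At 24 hours 3 of the 10 were called, against 9.65% of all genes: DDIT4 by 1.92 (adjusted p = 8.01e-06), TSC1 by 0.63 ± 0.15 (adjusted p = 0.0075) and RRAGD by 0.60 ± 0.15 (adjusted p = 0.00943). SESN2 missed the threshold at both times, by 1.31 at the earlier time (adjusted p = 0.0618) and by 0.89 at the later (adjusted p = 0.0927). With no background correction it was called at both times (0.48, adjusted p = 0.046, and 0.38, adjusted p = 0.0476). An offset of 50 gave SESN2 calls at both times too (adjusted p = 0.0305 and 0.0415). For SESN1 the difference was 0.27 and 0.50 (adjusted p = 0.0959 at 24 hours). The second DEPTOR probe was called at 12 hours in the fit of all kept probes (0.89 ± 0.21, adjusted p = 0.0407), where its siOGT change was -0.43, and the second TSC1 probe was called there too (0.62 ± 0.15, adjusted p = 0.0436). At 24 hours, where the main TSC1 probe was called, the second was not (0.34, adjusted p = 0.133). The TSC1 difference at 24 hours was not called with the mean of its probes (0.27, adjusted p = 0.329). Without scrambled replicate 3, SESN2 was called at 12 hours as well (1.61, adjusted p = 0.0144). Without ST045849 replicate 2, SESN1 (0.63, adjusted p = 0.0407) and SESN2 (1.11, adjusted p = 0.0411) were called at 24 hours, and without ST045849 replicate 3, TSC2 was called lower (-0.45, adjusted p = 0.0486). Between times, 0 of the 10 genes changed their response to ST045849 and 0 to siOGT, with 0 at an unadjusted p under 0.05 in either and 0% of all genes called by limma.

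Changes with ST045849 were mostly larger in the first array set. The sets were cut at the widest gap between the vehicle arrays along principal component 1, which also separates the ST045849 arrays. A larger difference in the first set is therefore partly built into the split. Same-numbered arrays gave a DDIT4 difference of 2.11 on average in the first set (1.94 to 2.24) and of 1.64 in the second (1.51 to 1.80). For TSC1 it was 0.80 (0.78 to 0.81) against 0.32 (0.27 to 0.39), for SESN1 0.76 (0.64 to 0.84) against 0.32 (0.21 to 0.51), and for SESN2 1.5 (1.15 to 1.94) against 0.87 (0.67 to 0.99). These 4 genes, like RRAGD and DEPTOR, rose in all 6 pairs. The ranges of the sets did not meet for these 4 genes or for RRAGC. RRAGD was closer, at 0.62 (0.61 to 0.63) and 0.49 (0.21 to 0.68), as was DEPTOR, at 0.35 (0.29 to 0.43) and 0.30 (0.11 to 0.46). RRAGC was at 0.37 (0.27 to 0.53) in the first set and 0.07 (-0.12 to 0.16) in the second. Part of the TSC1 and SESN1 gap lay in the vehicle arrays, which averaged 7.84 and 8.53 in the first set and 8.14 and 8.90 in the second. Each set holds 3 pairs from both times, and the difference between the sets was not tested.

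**Figure D3:**
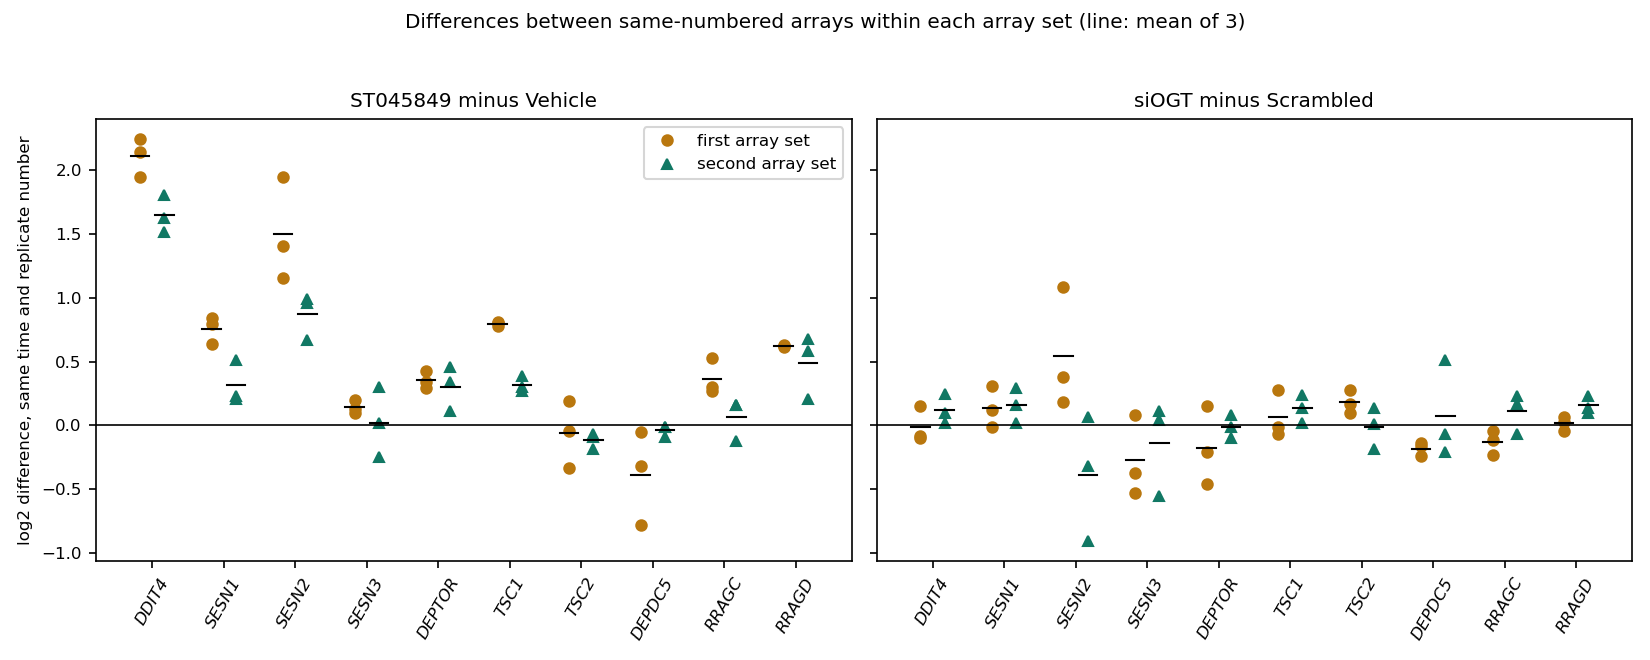
Difference between each ST045849 array and the vehicle array of the same time and number, log2 scale, for the 10 genes, and likewise for siOGT and scrambled, with the 3 pairs of each array set shown apart and a line for their mean. For DDIT4, SESN1, SESN2, TSC1 and RRAGC the first set lies above the second throughout with ST045849, and for TSC1 at 0.78 to 0.81 against 0.27 to 0.39.

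In the rest of the mTORC1 circuit the share of genes called was not above that of all genes. Across 7 lists of its other parts, 82 genes were listed and 66 tested, of which 4 rose and 1 fell with ST045849 at 12 hours (7.58% called, where 11% of all genes were). At 24 hours 11 rose and 3 fell (21.2% called, where 24.3% of all genes were), and the list medians were 0.03 and 0.08. With siOGT 0 of the 66 were called at either time. These shares lay near or below those of all genes. Among the 9 kinase complex subunits, MLST8, which binds the kinase domain, rose by 0.26 ± 0.08 (adjusted p = 0.0401) and 0.38 ± 0.08 (adjusted p = 0.00199), and the PRR5 subunit of mTORC2 fell by 0.43 at 24 hours. The kinase MTOR itself changed by -0.08 and -0.19 and its partner RPTOR by -0.13 and 0.12, none called. RHEB changed by -0.01 and -0.04 and TBC1D7, the other TSC complex subunit, by 0.11 and 0.09, not called. None of the 5 GATOR1 and KICSTOR genes tested passed at either time, among them NPRL2 (-0.08 and 0.13) and NPRL3 (-0.01 and 0.14). In the GATOR2 and sensor list of 8, LARS1, the leucyl-tRNA synthetase, rose by 0.33 at 12 hours and 0 were called at 24 hours. Of the 9 Rag, Ragulator and folliculin genes, FNIP2, a folliculin partner, fell by 0.97 at 24 hours (± 0.22, adjusted p = 0.00332), while FLCN changed by 0.03 and 0.23 and was not called.

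Growth factor and energy inputs held more calls at 24 hours, when 5 of 18 rose and 1 fell, against 1 and 0 at 12 hours, while calls over all genes went from 11% to 24.3%. GRB10, an adaptor that dampens insulin receptor signalling, rose at both times, by 0.60 ± 0.16 (adjusted p = 0.0213) and 0.65 (adjusted p = 0.00659). Its 24 hour companions were PIK3IP1, an inhibitor of PI3K (0.70), the AMPK subunit PRKAB1 (0.47), the PI3K regulatory subunit PIK3R1 (0.46) and STRADA, a partner of LKB1 (0.33), and the PI3K catalytic subunit PIK3CB fell by 0.43. Among 15 substrates and outputs, RB1CC1, a subunit of the ULK1 autophagy complex, rose by 0.47 ± 0.09 (adjusted p = 0.00265) and 0.44 (adjusted p = 0.00184). At 24 hours EIF4B (0.35), PDCD4 (0.38), ULK1 (0.38) and EEF2K (0.38) rose as well, and the S6 kinase gene RPS6KB2 fell by 0.34 at 12 hours. In that list 1 of 15 rose at 12 hours and 5 at 24 hours, where 5.73% and 13.6% of all genes were called higher. The list medians of substrates were 0.01 and 0.00.

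**Figure D4:**
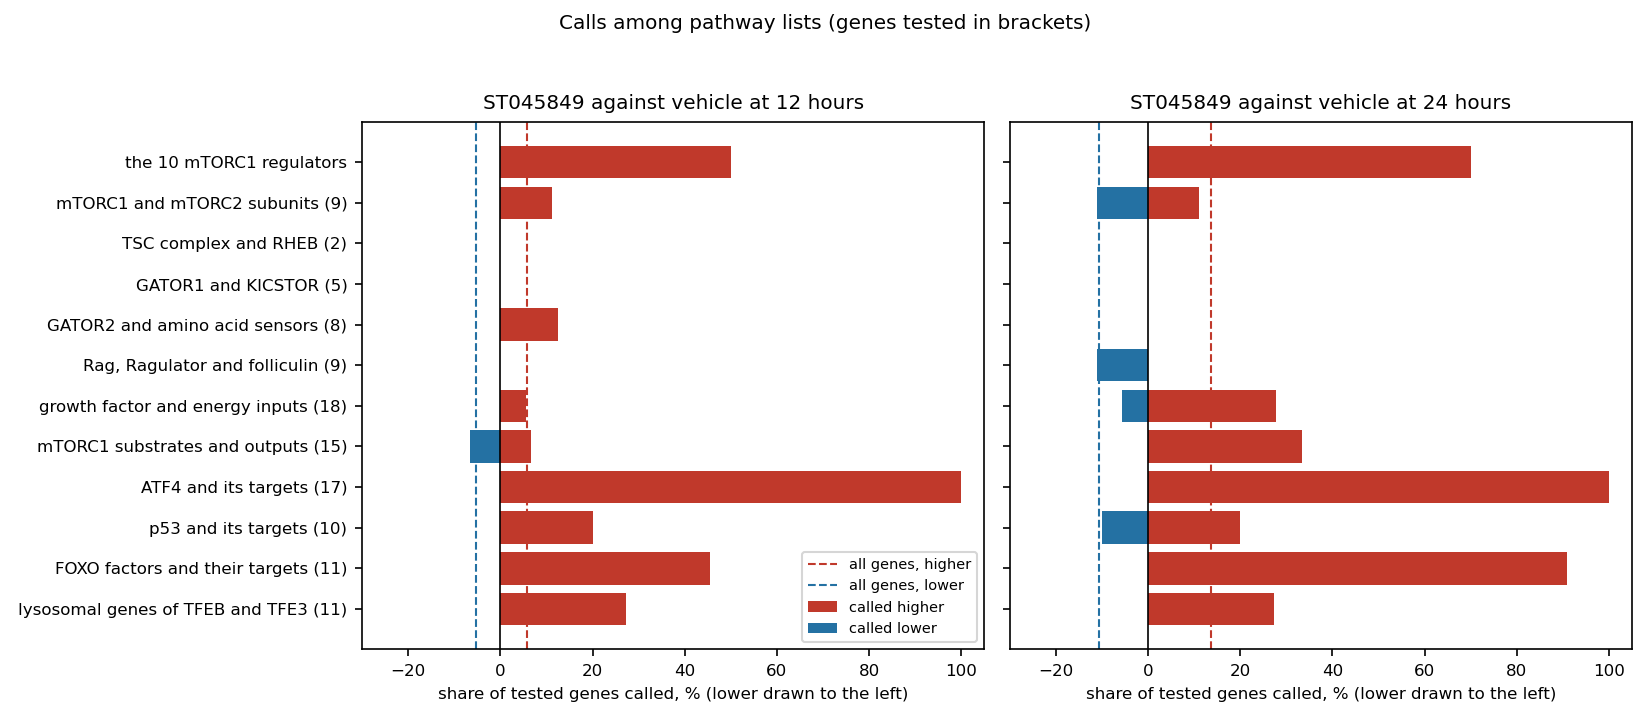
Share of tested genes, in percent, called higher (drawn to the right) and lower (to the left) with ST045849 in the 10 genes and in each list of pathway and target genes, at 12 and 24 hours, with dashed lines for all genes. All 17 ATF4 genes tested rose at both times, while the 7 lists of mTORC1 pathway parts together held 4 rises at 12 hours and 11 at 24 hours of 66 genes.

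DDIT4 and SESN2 are both known targets of ATF4, the transcription factor of the amino acid and stress response. Of 17 other genes tested in a list of ATF4 and its targets, 17 rose at 12 hours and 17 at 24 hours, with medians of 1.24 and 1.36, where 5.73% and 13.6% of all genes were called higher, and 0 were called with siOGT. That list was written with the strong ATF4 response in these data already known, so that its direction is no independent evidence. TRIB3, a pseudokinase that binds AKT, rose by 1.77 and 2.09, DDIT3, which encodes CHOP, by 2.23 and 2.63, STC2 by 1.49 and 1.67 and the serine enzyme gene PSAT1 by 1.17 and 1.36. ATF4 rose by 0.83 and 0.96.

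Likeness of pattern was measured by Pearson's r over arrays, as a description, since the 6 ST045849 arrays stood apart and arrays share their group. Nearest to DDIT4 over 24 arrays were ASNS, TRIB3 and DDIT3, at 0.98 each. Over the 18 arrays without ST045849 these stood at 0.72, 0.29 and 0.37, and the nearest gene was CALML4 at 0.84. SESN2 was nearest to SPIRE1, CTH and CEBPG, at 0.90 each over 24 arrays and 0.56, 0.54 and 0.50 over 18. DDIT4 and SESN2 correlated with each other at 0.85 over 24 arrays and at 0.07 over the 18 without ST045849. For SESN1 the nearest gene was CSMD1, at 0.89 over 24 and 0.87 over 18 arrays. TSC1 was nearest to WDR19, at 0.93 over 24 and 0.93 over 18 arrays. Each nearest gene was picked for its high r in these same arrays, so these values test nothing. RRAGD followed ATP2B1-AS1 at 0.91 over 24 arrays and at 0.73 over 18. DEPTOR was nearest to FAM3C (0.84 and 0.58) and RRAGC to SCAPER (0.76 and 0.66).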

How the data were processed

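Biotin-labelled RNA was read on one-colour Illumina arrays, per the labels' protocols. The deposited table held, per the file headers, a raw probe intensity and a detection p-value for each array, and the submitters' processing notes name GenomeStudio 2011.1. The authors' processed intensity values, in another deposited table, were linear by their range, had medians between 116.356 and 116.393 and served as an alternative. How they were made is unknown. With ST045849 they gave 1318 calls at 12 hours and 2673 at 24 hours, against 1318 and 2675 with quantile normalization and no background correction. These alternatives are therefore hardly separate.

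Raw intensities were corrected and quantile normalized with neqc (limma 3.58.1, R 4.3.3, offset 16) on the log2 scale, where an offset makes changes of dim probes look smaller. Of 47323 probes, 17633 were kept. A platform symbol was given to 30113 probes, several to 8 and none to 17202, and 4010 kept probes had no single name. The probe with the highest mean stood for a gene, as 2633 genes had several, which left 10345 genes. A fit of 8 group means with 16 residual degrees of freedom gave all contrasts, checked on simulated data, and 3 arrays a group limit the precision.

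The 10 genes and all lists were chosen with earlier results of these data known. The rule for other names took, from each list, up to 4 genes called in the same direction in both ST045849 contrasts. The list genes given otherwise (the core pathway subunits, genes called at 1 time, and ATF4) were chosen after their values were seen. For likeness the rule took the 3 nearest genes of each called gene. Same-numbered arrays deviated together at -0.0701 to 0.274, over 0.1 in 6 of 18 pairs, so the numbers were not taken to pair samples. Alternatives covered background correction, offset, scaling, filter, probes, blocks, weights, compared groups alone and leaving out each array.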

Additional observations from a re-analysis of the deposited data

How the results depend on the processing

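DDIT4 with ST045849 was called in every setting run, at 1.69 to 2.24 (highest adjusted p = 0.000735), and no direction of a called value turned. Of 187 values of the 10 genes under alternatives in each contrast, 165 kept their side of the threshold with ST045849 at 12 hours, 165 at 24 hours and all 187 with siOGT at each time. Of the 10 genes, 5 were called with ST045849 at 12 hours in the main setting, 2 under median scaling, 2 with the compared groups alone and 3 to 5 without 1 array (3 without ST045849 replicate 3). At 24 hours the 7 calls became 4 under median scaling, and 5 to 7 without 1 array. With the compared groups alone, DEPTOR and RRAGC were not called at 24 hours. Median scaling moved the median of all genes to -0.04 at 12 hours and -0.14 at 24 hours and the share of higher calls at 24 hours from 55.9% to 19%. It left DDIT4 and SESN2 called at 12 hours, and RRAGD (adjusted p = 0.029) and TSC1 (adjusted p = 0.0386) beside them at 24 hours. Relative to that shifted median, DDIT4 stood at 1.83, SESN2 at 1.38, RRAGD at 0.57, SESN1 and TSC1 at 0.54, DEPTOR at 0.30 and RRAGC at 0.27 at 24 hours. For the inhibitor minus the knockdown at 12 hours, 2 of the 10 were called in place of 1 with no background correction, the authors' processed values, an offset of 50, the mean of a gene's probes or the array set with an effect in each treatment, and 1 to 2 without 1 array. At 24 hours 5 in place of 3 were called with the set effect, and 3 to 5 without 1 array. SESN2 was also called at 24 hours with no background correction, the authors' processed values or an offset of 50, and SESN1 with array weights. In ST045849 against vehicle, the set effect also called DEPDC5 lower at 12 hours (-0.59, adjusted p = 0.0338). For the inhibitor minus the knockdown at 24 hours, TSC1 (adjusted p = 0.346) and RRAGD (adjusted p = 0.386) were not called under median scaling. There TSC2 was called lower (-0.68, adjusted p = 0.0269), and the share of higher calls over all genes went from 60% to 11.3%.

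Over all genes, the 1139 calls with ST045849 at 12 hours became 472 under median scaling, 452 with compared groups alone and 1618 with the set effect. Without 1 array they became 486 to 1052. The 2516 at 24 hours became 1901 under median scaling, 2059 with compared groups alone, 2994 with the set effect and 3150 with array weights. Without 1 array they became 1705 to 2414. For siOGT at 12 hours the 1 call became 2 with all kept probes, 5 with the set effect, 0 with compared groups alone and 0 to 1 without 1 array. For siOGT at 24 hours the 13 became 2 under median scaling, 75 with the set effect, 0 with compared groups alone and 2 to 30 without 1 array, and the higher share went from 23.1% to 50% under median scaling. Scrambled against vehicle at 24 hours had 9, which became 18 with no background correction or the processed values, 2 under median scaling (higher share 0% in place of 77.8%), 16 when detection on all 24 arrays was asked, 4 with no filter, 16 with the replicate block, 5 with array weights, 5 with the array set as a block, 17 with the set effect, 0 with compared groups alone and 1 to 45 without 1 array. The difference of the treatments at 12 hours had 207 calls. They became 336 with no background correction or the processed values and 57 under median scaling. With the set effect there were 728, with compared groups alone 118 and without 1 array 98 to 256. At 24 hours the 1662 became 1359 with no filter, 2204 with the set effect, 2254 with array weights and 1062 to 1746 without 1 array. The causes of these moves were not tested. The replicate block changed no other call of the 10 genes than that of RRAGC at 24 hours (0.32, adjusted p = 0.0556), and 11 of 18 arrays correlated best with their own number. Dim probes, SESN2, SESN3 and DEPDC5 among the 10, limit what can be seen of their changes.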

Other observations

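Target genes of other regulators of the same circuit were listed beside the ATF4 genes, and their counts stand against 5.73% of all genes called higher at 12 hours and 13.6% at 24 hours. Of 11 FOXO factors and targets tested, 5 rose with ST045849 at 12 hours and 10 at 24 hours, with medians of 0.35 and 0.45 and 0 that fell. TXNIP, which curbs glucose uptake, rose by 0.66 and 1.03, FOXO3 by 0.47 and 0.69, KLF6 by 0.64 and 0.77 and GADD45A by 0.56 and 0.65, and CITED2 was at -0.26 at 24 hours, not called. The p53 list of 10 held 2 rises at each time, near the share of all genes at 24 hours, GDF15 (1.43 and 1.63), which is also a stress gene, and TP53INP1 (0.60 and 0.59), and ZMAT3 fell by 0.55 at 24 hours. Of 11 lysosomal genes of TFEB and TFE3, 3 rose at each time, with medians of 0.12 and 0.21, and GPNMB rose at both (0.75 and 0.50). With siOGT 0 genes of these 3 lists were called at either time. The lists were written with earlier results known, and these counts describe them without a test of the list.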
